A study of Saccharomyces cerevisiae with 20 samples.

Results

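CIT3, PDH1 and ICL2 encode the 3 enzymes of the methylcitrate pathway of *Saccharomyces cerevisiae*, and their mRNA signals were followed through aerobic and anaerobic batch cultures. They were taken as the probe sets of Affymetrix YG-S98 arrays whose annotated gene symbol was one of these names, which gave 1 probe set each (7753_at for CIT3, 7754_at for PDH1 and 7758_at for ICL2). The 3 genes are among 5753 protein-coding genes with a probe set on the array. They were selected on their signals across the 10 conditions, which were known when they were chosen, so their levels and changes are given as a description with standard errors and intervals, without p-values.

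The methylcitrate pathway breaks down propionyl-CoA, a toxic intermediate that forms from propionate and from some amino acids. Citrate synthase activity joins propionyl-CoA to oxaloacetate, the resulting 2-methylcitrate is isomerised to 2-methylisocitrate, and a lyase splits this into succinate and pyruvate. In yeast these reactions take place in mitochondria and run beside the tricarboxylic acid cycle and the glyoxylate shunt, whose citrate synthases and isocitrate lyase belong to the same enzyme families. Genes for growth on ethanol and acetate are repressed by glucose and are switched on by regulators that include Cat8, Sip4 and Adr1.

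All cultures were of strain CEN.PK113-7D (MATa MAL2-8C SUC2), a haploid laboratory strain, grown at 30 °C in synthetic medium with 20 g per litre of glucose. Bioreactors were sparged with air or with nitrogen, and 2 independent cultures were followed in each regime. Aerobic cultures were sampled in exponential growth on glucose (expo), late expo, at the diauxic shift from glucose to ethanol, in the post-diauxic phase, and in early and late stationary phase (SP). Anaerobic cultures were sampled in expo, at the end of expo, and in early and late SP, and had no post-diauxic phase. The anaerobic medium alone contained ergosterol and Tween 80 dissolved in ethanol, and effects of these additions and of oxygen cannot be told apart. The 10 conditions thus comprise 20 arrays, and the comparison between regimes addresses how oxygen availability shapes entry into SP.

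The trimmed means of 240.2 to 240.3 follow from the authors' scaling of all arrays to the same average. Median signals, which this scaling does not fix, ran from 44.1 to 69.4. Between 1823 and 2822 features of an array lay below a signal of 12, fewest in aerobic late SP (1823 and 1847). Of 4 genes known for higher expression with oxygen, 4 had non-overlapping signals in the labelled direction, as did 4 of 6 genes known for higher expression without it. The exceptions were CYC7 and COX5B. DAN1 and TIR1, which encode cell wall proteins of anaerobic cells, had higher signals on arrays of aerobic culture 2 than on those of aerobic culture 1. For DAN1 the signals were 12.1 to 930.1 in culture 2 and at most 11.2 in culture 1, against 5140.1 to 9191.7 in anaerobic cultures. HAP4, a respiration regulator, gave 742.8 and 219.4 in aerobic expo cultures 1 and 2 and 383.2 and 997.9 in late expo, so the first array of one phase resembled the second of the other. The ACT1 probe sets at the 3′ and 5′ ends of the transcript, whose ratio reflects RNA integrity, gave ratios of 1.196 to 2.678, with the highest values in aerobic late SP. The part of these differences in the results below was not tested, except that values without aerobic culture 2 are given.

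**Figure D1:**
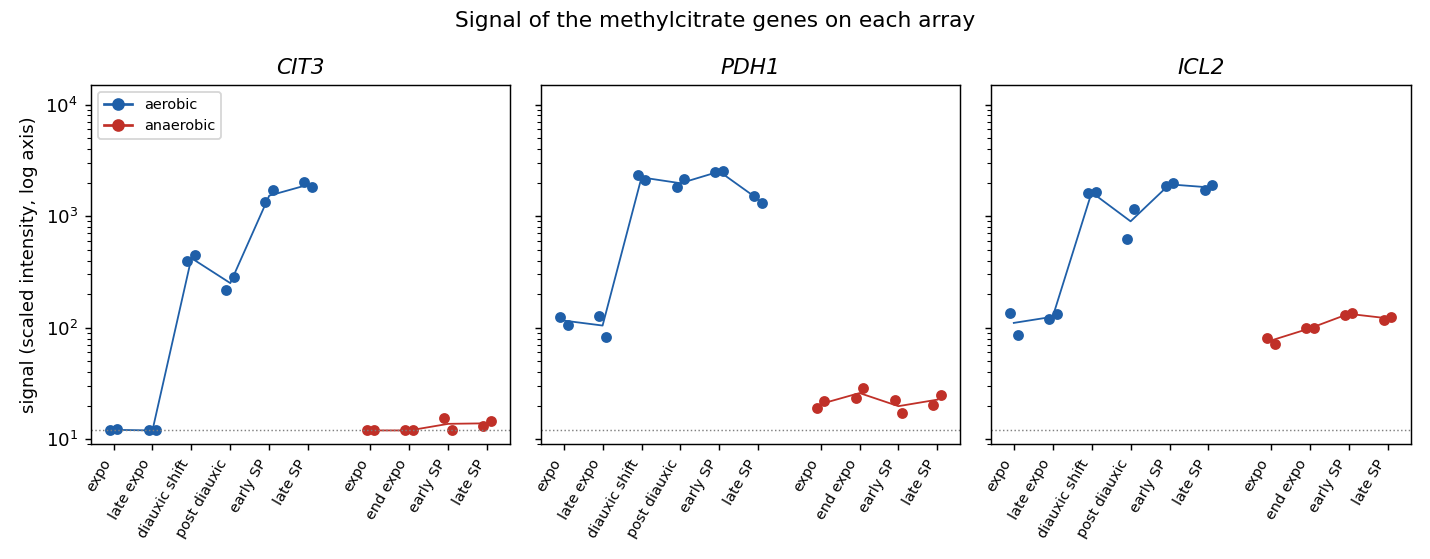
Signal of CIT3, PDH1 and ICL2 on each of the 20 arrays (log axis, signals below 12 set to 12, dotted line). Points are single cultures, lines join the means of 2 cultures, and blue and red are aerobic and anaerobic conditions. All aerobic points from the diauxic shift on lie above all other points of the same gene.

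CIT3 encodes the mitochondrial citrate and 2-methylcitrate synthase that carries out the first step. During growth on glucose its signal was at the limit of measurement, with 8.2 and 12.3 in aerobic expo and 7.6 and 7.0 in late expo. Signals below 12 are treated as 12 below. At the diauxic shift the cultures gave 396.1 and 444.9, and in the post-diauxic phase 220.0 and 281.9. The transcript was thus clearly measured at the diauxic shift, and the post-diauxic arrays lay below those of the diauxic shift. Early SP arrays read 1333.3 and 1721.4, and late SP arrays 2005.1 and 1818.7, so the stationary phase held the highest CIT3 signals. Anaerobic arrays read 1.7 and 9.1 in expo, 1.1 and 8.8 at the end of expo, 15.5 and 11.4 in early SP, and 13.2 and 14.6 in late SP. No anaerobic array exceeded 15.5. The order of conditions was late SP, early SP, diauxic shift and post-diauxic phase, each without overlap with the next. Below these came the 6 remaining conditions, whose neighbours overlapped.

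PDH1 encodes a putative 2-methylcitrate dehydratase, the isomerisation step, and is not the pyruvate dehydrogenase that its name recalls. Glucose-grown aerobic cultures gave signals of 126.0 and 105.7 in expo and 127.2 and 81.9 in late expo. The next samples read 2351.5 and 2098.6 at the diauxic shift and 1810.1 and 2134.5 in the post-diauxic phase. PDH1 was therefore already near its highest level at the diauxic shift, and these phases overlapped. Early SP had the highest signals, 2470.3 and 2557.1, and late SP read 1506.0 and 1321.5, below every other aerobic array taken after glucose exhaustion. Anaerobic arrays read 19.2 and 22.2 in expo, 23.3 and 28.6 at the end of expo, 22.3 and 17.3 in early SP, and 20.3 and 25.0 in late SP. Neighbours in the order of these 4 anaerobic conditions overlapped, and none of their arrays reached the lowest aerobic array.

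ICL2 encodes the 2-methylisocitrate lyase of the mitochondrial matrix, which yields succinate and pyruvate. Its signals were 134.8 and 86.0 in aerobic expo and 119.2 and 131.5 in late expo. At the diauxic shift they were 1617.8 and 1649.6. The post-diauxic cultures gave 629.7 and 1167.4, the widest spread of any condition for this gene. Early SP cultures gave 1858.4 and 1996.5, and late SP cultures gave 1721.8 and 1903.4, and these phases overlapped. The anaerobic ICL2 signals were 81.6 and 71.7 in expo, 98.4 and 98.7 at the end of expo, 130.1 and 136.3 in early SP, and 117.9 and 124.9 in late SP. Both anaerobic expo arrays lay below every aerobic array, and at late expo against the end of expo the regimes did not overlap, while anaerobic early and late SP overlapped in the order of levels with aerobic late expo.

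Changes between consecutive phases were estimated with limma across all 6067 tested probe sets, as log2 differences with standard errors (SE) from 2 cultures in each condition. A probe set was called where the Benjamini-Hochberg adjusted p was below 0.05 and the change at least 2-fold. The 3 members were chosen with these signals known. For them, meeting the rule or not is a description and counts as no test, also where it is set against the share of all probe sets. Between aerobic expo and late expo, none of the 3 genes met this rule, and 0% of all probe sets were called higher or lower. This background depends on the arrays fitted, since probe sets were called without aerobic expo culture 1 and also without all of aerobic culture 2. The log2 changes were -0.02 for CIT3, -0.18 for PDH1 and 0.22 for ICL2.

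At the diauxic shift all 3 genes stood far above late expo, and 3 of 3 met the call rule, against 19.4% of all probe sets called higher and 12.7% called lower. For CIT3 the difference was 5.13 (SE 0.178) on the log2 scale, which is at least 35.0-fold since both late expo arrays were below the floor. PDH1 was 21.8-fold higher, at 4.44 (SE 0.219). ICL2 was 13.1-fold higher, at 3.71 (SE 0.246). Each culture showed these rises, with 4.21 and 4.68 for PDH1 and 3.76 and 3.65 for ICL2 in cultures 1 and 2. Without the arrays of aerobic culture 2, the changes were 4.21 for PDH1 and 3.76 for ICL2, and all 3 genes still met the rule. That fit has 1 array in each aerobic condition and takes its spread from the anaerobic cultures alone, so the aerobic arrays are assumed to vary like these.

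From the diauxic shift to the post-diauxic phase, the signals of CIT3 and ICL2 were lower in both cultures, but no gene met the call rule, against 3.54% of probe sets called lower and 7.42% called higher. The log2 change was -0.75 for CIT3 (95% interval -1.13 to -0.37), -0.93 for ICL2 (-1.46 to -0.41) and -0.18 for PDH1 (-0.64 to 0.29). For ICL2 the size depended on the culture, at -1.36 in culture 1 and -0.50 in culture 2. Without aerobic culture 2, ICL2 met the rule as lower, in a comparison of 1 array with 1 whose spread came from the anaerobic cultures. On the same arrays AIM45 and HAL1, which lie between PDH1 and ICL2 on the chromosome, also differed between the cultures, with 356.2 and 853.2 for AIM45 and 20.7 and 56.8 for HAL1. Both were picked from the neighbours after their values were seen. The share of all probe sets that differ so between these arrays was not determined. The 3′ to 5′ ratio of the SRB4 control was also highest in this phase, at 8.161 and 11.19, and its part in the result was not tested.

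On entry into aerobic SP, CIT3 and ICL2 met the call rule as higher and PDH1 did not. CIT3 was 6.08-fold higher in early SP than in the post-diauxic phase, with a 95% interval of 2.22 to 2.99 on the log2 scale and changes of 2.60 and 2.61 in the 2 cultures. ICL2 was 2.25-fold higher, with 1.56 in culture 1 and 0.77 in culture 2. PDH1 was 1.28-fold higher, with an interval of -0.11 to 0.82. The count of 2 of 3 genes stands against 6.81% of probe sets called higher and 11.5% called lower. Without post-diauxic culture 1 the ICL2 change was 0.72 and no longer met it.

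**Figure D2:**
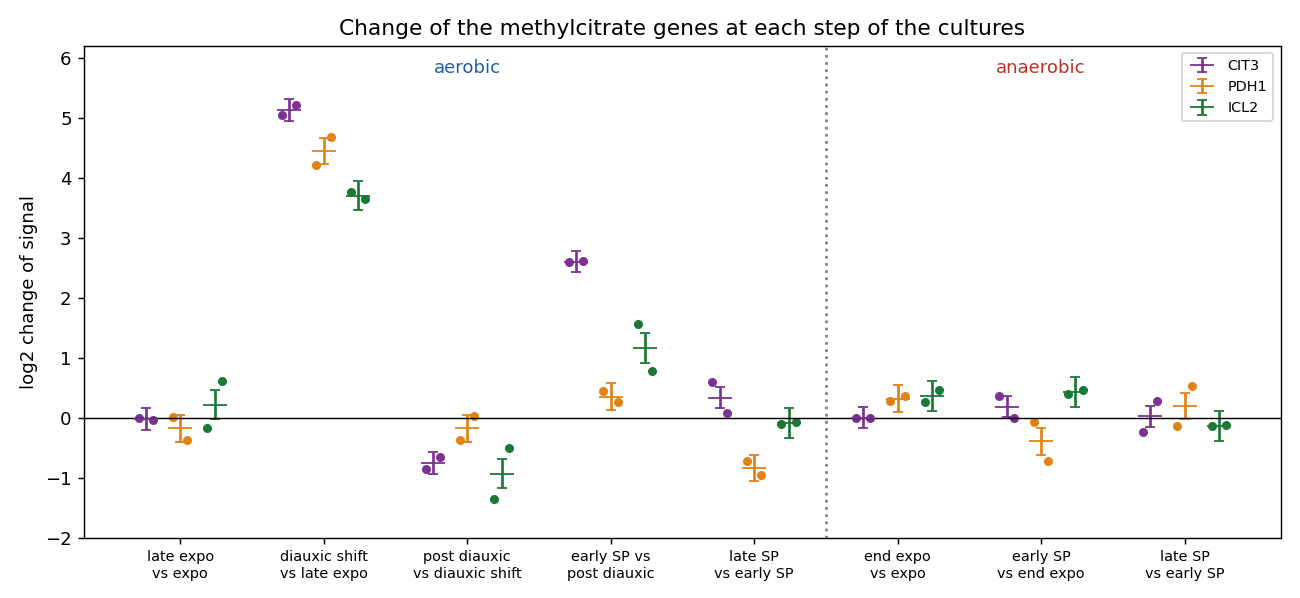
Log2 change of signal of CIT3, PDH1 and ICL2 between consecutive conditions, aerobic left of the dotted line and anaerobic right of it. Dots are the 2 cultures, horizontal bars the mean and error bars its SE. Changes beyond 3 are seen only at the diauxic shift, and the anaerobic means stay between -0.39 and 0.43.

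Between early and late aerobic SP, PDH1 was 1.78-fold lower, with an interval of -1.30 to -0.37 on the log2 scale and changes of -0.71 and -0.95 in the 2 cultures. Its groups did not overlap, but the change was below the 2-fold limit of the call rule, so 0 of 3 genes were called, against 16.4% of probe sets called lower and 8.01% called higher. CIT3 had a log2 change of 0.33, which came from 0.59 in culture 1 and 0.08 in culture 2. ICL2 had a log2 change of -0.09 (interval -0.61 to 0.44).

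In anaerobic cultures none of the 3 genes met the call rule at any step. From the end of expo to early SP, the point at which glucose ran out, the log2 changes were 0.18 for CIT3 (interval -0.20 to 0.57), -0.39 for PDH1 (-0.86 to 0.07) and 0.43 for ICL2 (-0.09 to 0.96). In the same step 23.9% of all probe sets were called higher and 23.8% lower. The CIT3 value depends on the floor, since its end of expo signals of 1.1 and 8.8 both lay below 12. With a floor of 1 the change was 2.10 and met the rule. The levels themselves stayed at 15.5 or less. From anaerobic expo to the end of expo, the changes were 0.32 for PDH1 and 0.37 for ICL2, and 0.412% of probe sets were called higher and 0.0659% lower. From early to late SP they were 0.20 and -0.13, while CIT3 had 0.03, and 0.0165% of probe sets were called higher and 0.396% lower.

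At matched phases the aerobic and anaerobic cultures lay furthest apart after glucose was gone. The anaerobic CIT3 signals lay close to the floor. In early SP that of culture 2, at 11.4, was below it, so CIT3 folds against anaerobic early SP are lower bounds. In anaerobic late SP both, at 13.2 and 14.6, were just above it. In early SP, CIT3 was at least 111-fold, PDH1 128-fold and ICL2 14.5-fold higher in aerobic cultures, and 3 of 3 met the call rule, against 16.1% of probe sets called higher and 9.02% lower. In late SP the folds were 138 for CIT3, 62.6 for PDH1 (log2 5.97, interval 5.50 to 6.44) and 14.9 for ICL2 (3.90, 3.37 to 4.42). Again 3 of 3 met the call rule, against 18.2% of probe sets called higher and 12.8% lower. The aerobic and anaerobic arrays did not overlap for any of the 3 genes, but the share of all probe sets without overlap was not determined. Without aerobic culture 2 the late SP log2 differences were 7.17 for CIT3, 6.06 for PDH1 and 3.83 for ICL2. Bulk RNA cannot tell fewer cells that express a gene from less RNA in each cell. The aerobic diauxic shift was compared with anaerobic early SP, each the next sampled phase after growth on glucose. The labels give no time from glucose exhaustion to either sample. The folds were at least 30.8 for CIT3, 113 for PDH1 and 12.3 for ICL2. By the call rule 3 of 3 were higher, against 15.9% of probe sets called higher and 6.56% lower. This comparison shares the anaerobic early SP arrays with the early SP comparison.

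During growth on glucose PDH1 alone of the 3 genes met the call rule between the regimes. It was 5.59-fold higher in aerobic than anaerobic expo (interval 2.02 to 2.95 on the log2 scale), where 5.08% of probe sets were called higher and 2.88% lower, and 3.95-fold higher at late expo against the end of expo, where 6.05% were called higher and 3% lower. ICL2 had log2 differences of 0.49 (-0.03 to 1.02) and 0.35 (-0.18 to 0.87) in these comparisons. CIT3 was at the floor in both regimes, so no fold is given. When only the 4 arrays of a comparison were fitted, PDH1 no longer met the rule in either. The count of probe sets called higher in aerobic expo, 308 in all, was 179 without aerobic expo culture 1 and 580 without aerobic expo culture 2.

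The enzymes that share a reaction type with CIT3 and ICL2, and the aconitase ACO1, were compared next. This list and those that follow were chosen with earlier results of these data known. Their counts, medians and p-values are therefore a description and count as no test of the lists. CIT1, the main mitochondrial citrate synthase, CIT2, its peroxisomal counterpart in the glyoxylate cycle, ICL1, the isocitrate lyase of the glyoxylate cycle, and ACO1, the mitochondrial aconitase, all rose at the diauxic shift (4 of 4, adjusted p by limma of 0.00039 or less). ICL1 rose most, from 89.4 and 97.9 in late expo to 7562.7 and 8387.8, an 85.1-fold change (adjusted p by limma 2.84e-11). CIT1 rose 2.35-fold and CIT2 2.23-fold, both from signals well above the floor. At the diauxic shift 19.4% of all probe sets were called higher. In anaerobic cultures, CIT1 was the only one of the 4 to be called at glucose exhaustion, from 599.0 and 960.2 to 3293.5 and 3683.4 (4.59-fold, adjusted p by limma 9.23e-07). ICL1 had a log2 change of 0.62 (adjusted p by limma 0.0407) that stayed under 2-fold. Of all probe sets, 23.9% were called higher and 23.8% lower at anaerobic glucose exhaustion.

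Between aerobic and anaerobic late SP, 2 of the 4 genes were called, CIT2 and ICL1. Of all probe sets, 18.2% were called higher and 12.8% lower. CIT1 had 4077.3 and 4433.2 in aerobic and 3525.7 and 3941.7 in anaerobic late SP, a log2 difference of 0.19 (SE 0.231, adjusted p by limma 0.521). CIT2 was 2.85-fold higher in aerobic cultures (adjusted p by limma 2.08e-05) and ICL1 55.4-fold higher (1.45e-10). ACO1 differed by 0.14 on the log2 scale (adjusted p by limma 0.57).

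**Figure D3:**
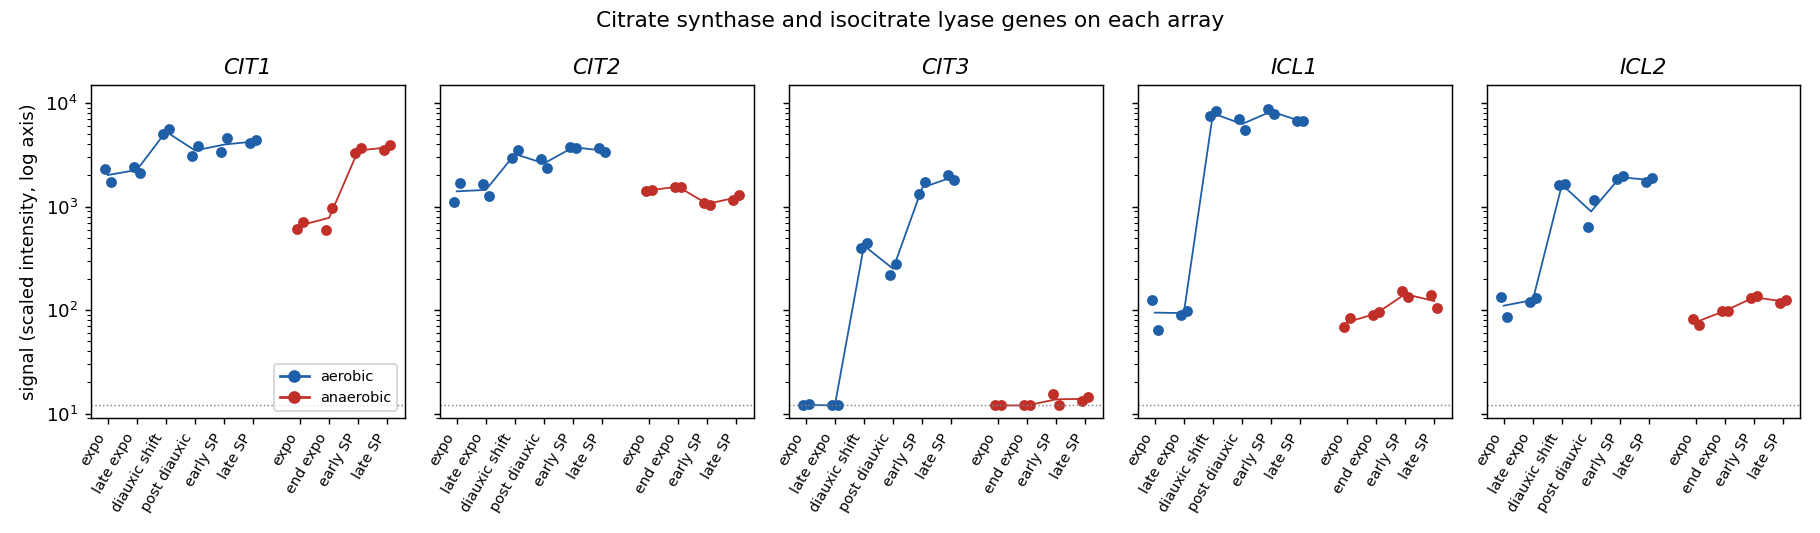
Signal of the citrate synthase genes CIT1, CIT2 and CIT3 and of the isocitrate lyase genes ICL1 and ICL2 on each array (log axis, floor of 12 dotted). Blue and red are aerobic and anaerobic, points are cultures and lines join means. Signals of different genes are not comparable in height, only the course of each gene. The anaerobic CIT1 points go from 599.0 and 960.2 at the end of expo to 3293.5 and 3683.4 in early SP, and the CIT2 points from 1563 and 1555.4 to 1084.6 and 1040.6.

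Genes that can supply propionyl-CoA or its precursors changed in part. Of 10, 3 rose and 1 fell at the diauxic shift, where 19.4% of all probe sets were called higher and 12.7% lower, so the counts are near the background. The acetyl-CoA synthetase ACS1 (log2 change 5.91, adjusted p by limma 1.74e-10) and the CoA transferase ACH1 (4.02, 2.82e-09) had the largest rises, and threonine deaminase ILV1 fell (-1.02, 0.00774). ACS2, PDA1, PDB1, LAT1 and LPD1, of acetyl-CoA formation, were not called, and CHA1 was at the floor throughout this step. In anaerobic cultures at glucose exhaustion, 4 of the 10 rose, ACS1 (3.43, 6.3e-08) and ACH1 (3.20, 2.73e-08) among them, and ILV1 fell (-2.38, 3.76e-06), against 23.9% of all probe sets called higher and 23.8% lower.

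The 12 listed targets of Cat8 and Sip4 are genes of gluconeogenesis, the glyoxylate cycle and C2 metabolism. They were chosen with earlier results of these data known, so their counts and medians are a description. All 12 of 12 rose at the diauxic shift. Their median log2 change was 6.78 against 0.17 over all tested probe sets, of which 19.4% were called higher. The largest were the malate synthase MLS1 (8.71, adjusted p by limma 1.78e-14), FBP1 (8.07, 1.78e-14), PCK1 (7.94, 1.45e-12) and ADH2 (7.92, 2.26e-12). In anaerobic cultures at glucose exhaustion 7 of the 12 rose, against 23.9% of all probe sets called higher. The median over the 12 was 1.57 against 0.00 over all probe sets. The carnitine acetyltransferase CAT2 (4.81, adjusted p by limma 2.02e-09) and ACS1 led. The 5 not called were ICL1, FBP1, SFC1, IDP2 and ADH2, among which SFC1 was at the floor on all 4 arrays. In late SP all 12 were called higher in aerobic cultures, against 18.2% of all probe sets. The median log2 difference was 5.85 against 0.08 over all probe sets.

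The regulators of glucose derepression were followed over the same steps. At the aerobic diauxic shift 5 of 8 rose, SIP4 (at least 151-fold, since late expo was below the floor), ADR1, CAT8, RDS2 and HAP4, and MIG1 fell, against 19.4% of all probe sets called higher and 12.7% lower. At anaerobic glucose exhaustion 6 of 8 rose, CAT8, SIP4, ADR1, HAP4, SNF1 and RDS2, against 23.9% of all probe sets called higher and 23.8% lower. CAT8 went from 3.7 and 0.5 to 254.0 and 245.1 (at least 20.8-fold, adjusted p by limma 4.28e-09), and HAP4 from 51.3 and 47.1 to 2264.2 and 2429.9 (47.7-fold, 6.79e-08). The CAT8 transcript was present in anaerobic SP cultures in which CIT3, PDH1 and ICL2 were low. Whether CAT8 or any other listed regulator acts on CIT3, PDH1 or ICL2 in these cultures was not tested. In late SP, CAT8 differed by 0.12 between the regimes (adjusted p by limma 0.731) and overlapped. Among the 8 regulators, SIP4, ADR1 and MIG1 were called higher and HAP4 lower in aerobic than in anaerobic late SP. The shares of all probe sets were 18.2% called higher and 12.8% lower. SIP4 had 4086.2 and 4050.5 in aerobic and 37.6 and 53.1 in anaerobic late SP (91.0-fold, adjusted p by limma 1.67e-12).

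Of 15 genes of the mitochondrial tricarboxylic acid cycle, 11 rose at the diauxic shift, with a median log2 change of 1.68 against 0.17 over all probe sets, of which 19.4% were called higher, KGD1 (2.32, adjusted p by limma 1.16e-05) and SDH1 (2.27, 0.00149) leading. At anaerobic glucose exhaustion 10 of the 15 rose, with a median of 2.13 against 0.00 over all probe sets, of which 23.9% were called higher, SDH1 (3.18, 5.03e-05), SDH2 (2.97, 3.29e-06) and SDH4 (2.86, 5.04e-05) leading. In late SP 2 were higher in aerobic cultures, LSC1 and LSC2, and MDH1 was lower (-1.61, adjusted p by limma 0.000542). Of all probe sets, 18.2% were called higher and 12.8% lower in late SP.

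CIT3, PDH1 and ICL2 lie close together on chromosome XVI. In the order of the reference annotation, no protein-coding gene lies between CIT3 and PDH1, which share a strand, and 3 genes (YPR003C, AIM45 and HAL1) lie between PDH1 and ICL2, which is on the other strand. Of the 6 neighbours measured, 3 rose at the diauxic shift, against 19.4% of all probe sets, and 2 at anaerobic glucose exhaustion, against 23.9%. At the diauxic shift YPR003C, HAL1, which takes part in salt tolerance, and HAA1, an activator of weak acid responses, rose by 2.08, 1.87 and 1.39 on the log2 scale (adjusted p by limma of 0.000632 or less). HAT1, a histone acetyltransferase, AIM45 and the meiotic cohesin gene REC8 were not called. At anaerobic glucose exhaustion YPR003C and HAL1 rose as well (1.16 and 1.98), while HAT1 fell at least 3.07-fold, to signals below the floor. YPR003C, HAL1, HAT1 and REC8 had low signals, at most 53.6, 107, 47.5 and 23.2 on any array. Floor effects thus limit what their calls and missing calls show.

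**Figure D4:**
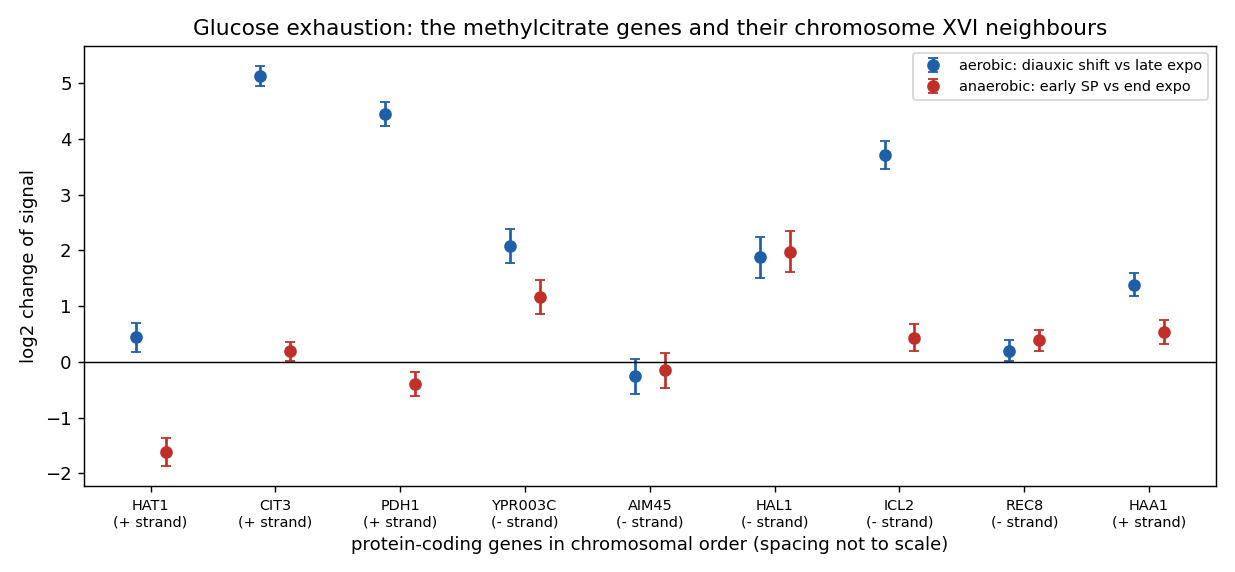
Log2 change of signal at glucose exhaustion in aerobic (blue) and anaerobic (red) cultures for CIT3, PDH1, ICL2 and 6 neighbouring genes in chromosomal order, not to scale. Points are means of 2 cultures against 2 and error bars are SE. CIT3, PDH1 and ICL2 have aerobic changes of 5.13, 4.44 and 3.71, and the neighbour with the largest has 2.08.

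Over the 20 arrays the log2 signals of the members correlated with each other, with Pearson r of 0.98 for CIT3 and ICL2, 0.94 for PDH1 and ICL2 and 0.91 for CIT3 and PDH1. The points share arrays, cultures and the single large step at the diauxic shift. Over the 12 aerobic arrays alone r was 0.97, 0.96 and 0.92. Of 5773 probe sets with a single gene symbol, 106 reached r of 0.9 or more with CIT3, 62 with PDH1 and 93 with ICL2, and the median r was 0.19 to 0.23.

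The probe sets most like CIT3 were CTA1, peroxisomal catalase (r 0.994), ADY2, an acetate transporter (0.992), YAT1, a carnitine acetyltransferase (0.985), ADH2, the ethanol-oxidising alcohol dehydrogenase (0.983), and SDS23 (0.982). For ICL2 they were SDS23 (0.988), ADY2 (0.988), ADH2 (0.986), ICL1 (0.983) and IDP2, the cytosolic isocitrate dehydrogenase (0.983). CIT3 and ICL2 thus had ADY2, ADH2 and SDS23 in common. For PDH1 they were DPC25 (0.980), PUT4, a proline permease (0.976), YTP1 (0.976), YHR033W (0.970) and DAD4 (0.960), none of which was among the 5 of the other members. PUT4 read 12.9 to 16.8 in the means of the 4 anaerobic conditions and 2137 or more in the 4 aerobic conditions after glucose exhaustion. Some genes of the lists above were picked here after their values were seen. CIT2 correlated with CIT3 at 0.94 whereas CIT1 did at 0.61, and SIP4 correlated with ICL2 at 0.97 whereas CAT8 did at 0.65. Of the chromosome XVI neighbours, HAA1 had the highest r with each member, 0.96 with CIT3, 0.87 with PDH1 and 0.95 with ICL2. The other neighbours reached at most 0.53 (YPR003C with ICL2).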

How the data were processed

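The deposited intensity values are linear Affymetrix signals, 1 for each of 9335 features and 20 arrays, already scaled by the authors so that all arrays have the same average. They were used with no further scaling. A floor of 12 was applied, which the study's methods also use, features of protein-coding genes with a highest signal below 20 were left out (580 of 6647), and log2 signals of the remaining 6067 were fitted with limma 3.58.1 in R 4.3.3 as 10 group means with 10 residual degrees of freedom. P-values were adjusted by Benjamini and Hochberg over all 6067. This floor compresses changes of dim probe sets. The number of cultures, 2 per condition, limits the precision. The members and gene lists were chosen with earlier results of these data known, so counts, medians and p-values of the lists are a description.

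Genes named in the text are the 3 members, all isoenzymes and neighbours, up to 4 genes with the largest called changes of each other list and comparison, and the 5 probe sets most correlated with each member. Genes named because they missed the call rule, and HAP4 and MIG1 at the diauxic shift, were picked after their values were seen. Same-numbered arrays of a regime are 1 culture followed over time, per the study's methods, and their deviations from group means had a median correlation of 0.121 over 15 aerobic pairs, from -0.555 for expo against late expo to 0.373, and 0.094 over 6 anaerobic pairs. The numbers of aerobic late expo therefore pair poorly with those of other phases, which limits the per-culture changes at the diauxic shift. Gene order came from a RefSeq annotation table. The main fit was tested on simulated data for the aerobic diauxic shift against late expo only. The other comparisons, the interaction and the alternative fits were not. Alternatives covered the floor, the filter, the scaling, the arrays fitted, a culture block and each array left out. Plots used matplotlib 3.10.9 under Python 3.11.15.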

Additional observations from a re-analysis of the deposited data

Results flagged for a closer look

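ACO1, the mitochondrial aconitase, changed from early to late SP to a different extent in the 2 regimes. The log2 change was -1.71 in aerobic and -0.63 in anaerobic cultures, and the difference, aerobic minus anaerobic, was -1.08 (SE 0.267, adjusted p 0.00935 by limma for the interaction over 6067 probe sets, of which 19.3% were called). ACO1 signals were 6315.6 and 4425.2 in aerobic early SP and 1622 and 1600.1 in late SP, and 2199 and 2343.7 in anaerobic early SP and 1443.7 and 1482.6 in late SP, so late SP was lower in 4 of 4 cultures. The ACT1 3′ to 5′ ratio was 2.095 to 2.678 in aerobic late SP and 1.62 to 1.644 in anaerobic late SP, and its part in the difference was not tested. The other 3 isoenzyme and 6 neighbouring genes had an adjusted p of 0.05 or more for this interaction.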

How the results depend on the processing

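Across 34 alternatives none of the 39 member changes reversed a call, and the 16 called ones kept their direction in all 544 values. A call was lost 4 times: for ICL2 from post-diauxic phase to early SP when only the arrays compared were fitted or post-diauxic culture 1 was left out, and for PDH1 between regimes in expo and in late expo when only the arrays compared were fitted. By count of members, the post-diauxic step had 1 lower under quantile normalization and 1 without all arrays of aerobic culture 2 (0 to 1 with an array left out). The step to early SP had 1 higher with only the arrays compared (1 to 2 with an array left out), late against early aerobic SP had 1 lower under quantile normalization, anaerobic glucose exhaustion had 1 higher with a floor of 1, and the comparisons of expo and of late expo had 0 higher with only the arrays compared. The cause was not tested, other than the smaller number of samples in the last.

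In late SP, 2 genes of propionyl-CoA supply were higher with a floor of 1 and under quantile normalization (1 to 2 with an array left out). Neighbours called higher were 1 with a floor of 30 and with a highest signal of at least 100, at anaerobic glucose exhaustion and in late SP, and 1 under quantile normalization in late SP (1 to 2 with an array left out in each). The replicate block, with culture number as a term within each regime, left every member count as it was, with 3 at the diauxic shift and 2 at the step to early SP. Crossing the numbers at aerobic late expo, added after seeing the data along with leaving out aerobic culture 2, did so too.

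Over all probe sets, calls higher in aerobic expo were 308 and fell to 10 with only the arrays compared, but with an array left out ranged up to 580, with 282 lower against 175. In late expo they were 367 and 93. Calls higher at the post-diauxic step were 450 and became 284, and those lower became 332 from 215 without aerobic culture 2, but without aerobic diauxic shift culture 1 they were 231 and 120. Fits without aerobic culture 2 have 1 array per aerobic condition and take their spread from the anaerobic arrays. Quantile normalization moved the share of calls that were higher from 60.4% to 46.7% at the diauxic shift and from 58.7% to 44.2% in late SP.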
